A study of Mus musculus with 20 samples.

Results

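The gamma arm of the study was read by itself here, gene by gene. Of the 20 mice in the series, the 10 that received gamma rays were used, and of the 21078 genes in the deposited sense-strand count table the 13021 with a mean count of 5 or more over these 10 mice were tested for a trend with dose. Every mouse was a wild-type male C57BL/6 animal aged 10 to 12 weeks on regular chow, and no transgene or drug was involved. One mouse received each whole-body dose of 0, 5, 10, 25, 50, 75, 100, 125, 150 or 200 cGy from a cesium source while restrained and awake, and the mouse at 0 cGy was sham-treated. The thoracic aorta was taken 4 h later and its polyadenylated RNA was sequenced. Because each dose was 1 mouse, the error of every slope comes from the scatter of the mice around fitted lines. The fit draws the scatter of each gene toward that of other genes, so the error is not that gene's alone. A mouse and its dose cannot be told apart at any single point. The other 10 mice of the series received the same doses of protons and were used only where named.

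Ionizing radiation breaks DNA, and the sensor kinases ATM and DNA-PK then stabilize the transcription factor p53. p53 binds a DNA element made of paired decamers and switches on genes for cell cycle arrest (Cdkn1a), apoptosis (Bax), metabolic adjustment (Sesn2) and its own shutdown (Mdm2, Ccng1). In the aortic wall most RNA comes from contractile smooth muscle, with smaller shares from endothelium, adventitial fibroblasts and the fat around the vessel, and few of these cells divide.

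The 10 libraries had been resampled to almost the same size, from 6055666 to 6058006 counts. All 24 smooth muscle markers were detected, with a summed level of 72749 to 100113 CPM (counts scaled to library size), and all 24 endothelial markers were detected with a summed level of 830.2 to 1991 CPM. Fat markers stood apart in 1 mouse: at 100 cGy the 20 brown fat genes summed to 1653 CPM against 650.8 to 787.1 CPM in the other 9 mice, and the 24 white fat genes to 10544 against 2829 to 4798 CPM. The 14 red cell and platelet genes summed to 1320, 1936, 2389 and 1735 CPM at 0, 25, 100 and 200 cGy and to 51.67 to 132.9 CPM in the other 6 mice. In these same mice at 0, 25, 100 and 200 cGy the endothelial markers summed to 1764 to 1991 CPM, against 830.2 to 1502 CPM in the other 6. The macrophage genes summed there to 712.8 to 1220 CPM, against 258.2 to 410.1 CPM. Macrophage genes ranged from 258.2 to 1220 CPM, nerve genes from 288.5 to 366.5 CPM, and lymphocyte genes from 6.438 to 43.92 CPM. Heart and skeletal muscle genes ranged from 113.4 to 234.6 CPM, with the cardiac genes Tnnc1, Nppa and Nppb at 0 counts in all 10 mice. The libraries at 150 and 200 cGy differed from the other 8 in base composition: across 9619 genes the Spearman correlation between a gene's deviation in that library and its GC content was -0.478 and -0.442, against 0.0288 to 0.406 at 0 to 125 cGy, and that with transcript length was 0.245 and 0.383 against -0.208 to -0.0111. For this reason each trend was fitted to all 10 doses and again to the 8 doses up to 125 cGy.

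**Figure D1:**
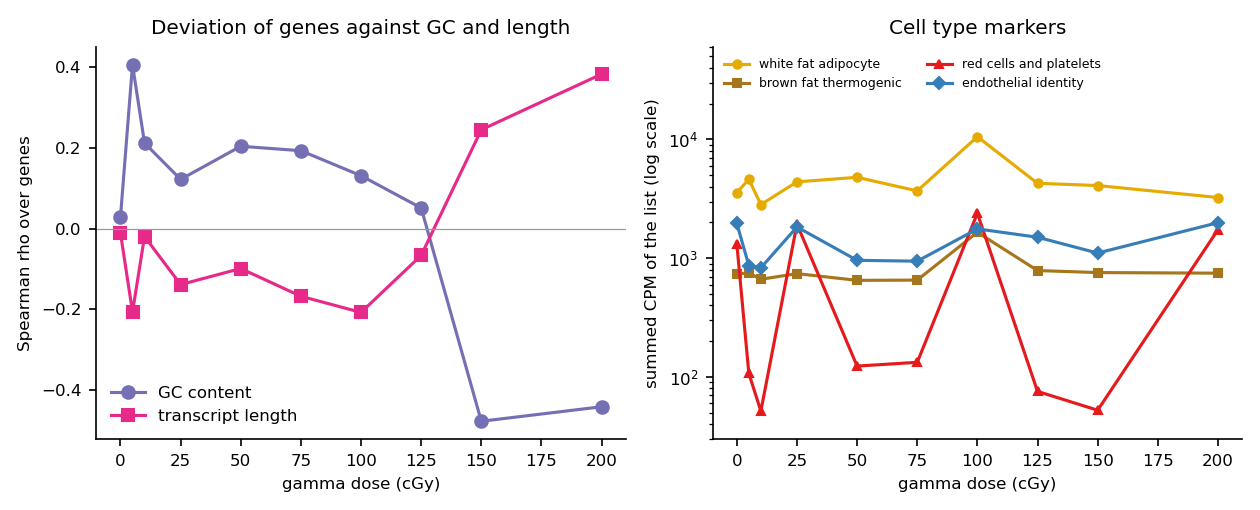
The left panel plots, for each gamma mouse, the Spearman correlation over 9619 genes between a gene's deviation from its mean log2 CPM and its GC content or transcript length, against dose in cGy. The right panel plots the summed CPM (log scale) of 4 marker lists. The mice at 150 and 200 cGy lie apart on the left, and the fat markers peak at 100 cGy on the right.

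Over all 10 doses, 894 genes rose and 614 fell at an adjusted p of 0.1 or less, which is 6.87% and 4.72% of the genes tested. Slopes are given as log2 change per 100 cGy. The median rising gene had a slope of 0.30, a fitted 1.51-fold level at 200 cGy over 0 cGy, and the median falling gene a slope of -0.26, a fitted 0.695-fold level. Steep responses were mostly increases, with 55 risers and 2 fallers at a slope of 1 or more in size. In bulk RNA, a lower share of the cells that express a gene and less of its RNA per cell cannot be told apart. Leaving out the mouse at 200 cGy left 128 rising and 145 falling genes, leaving out that at 150 cGy left 279 and 171, and leaving out that at 5 cGy left 486 and 253. With a correction for GC content and length, 239 rose and 293 fell, so that fallers outnumbered risers. An exact one-sided permutation test on ranks (Spearman correlation with dose), which assumes no straight line, called 253 rising genes (1.94%) and 54 falling genes (0.415%), of which 212 and 52 were among those above. On ranks too the balance turned, to 39 rising and 103 falling with GC content and length corrected and to 116 and 144 on TMM-scaled values, and the falling calls were 4 without the mouse at 25, 125, 150 or 200 cGy.

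Without the 2 highest doses, far fewer genes passed. Over 0 to 125 cGy, 44 genes rose (0.338%) and 40 fell (0.307%), with steeper median slopes of 0.75 and -0.56. Both fits share the 8 mice up to 125 cGy, so their overlap is not independent evidence: 41 of the 44 risers also rose over all doses (93.2% of the shorter list and 4.59% of the longer) and 28 of the 40 fallers also fell (70% and 4.56%). The rank test called 0 genes in either direction over these 8 doses, with 1281 rising and 779 falling genes at an unadjusted p under 0.05 and smallest adjusted p-values of 0.218 and 0.108, and 8 doses allow no p below 2.5e-05. DESeq2 called 96 and 120. With 1 mouse left out, the rising and falling counts were 26 and 28 without 0 cGy, 18 and 8 without 5 cGy, 30 and 21 without 10 cGy, 28 and 17 without 25 cGy, 25 and 20 without 50 cGy, 22 and 15 without 75 cGy, 30 and 19 without 100 cGy, and 19 and 15 without 125 cGy. With GC content and length corrected, 39 of the 44 risers and 35 of the 40 fallers were still called, against 218 of 880 risers and 204 of 606 fallers over all doses.

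The curves of each set of genes are given as a description, since the sets were called on these same mice. The 44 genes that rose over 0 to 125 cGy were a median 0.37 log2 units above the mean of the 3 lowest doses at 50 cGy, 0.62 at 75 cGy, 0.73 at 100 cGy and 0.85 at 125 cGy, and then stayed level, at 0.79 at 150 cGy and 0.86 at 200 cGy. The 40 falling genes reached -0.62 at 100 and 125 cGy and lay at -0.50 and -0.49 at the highest doses. A shape share was computed for each gene as its mean change at 50 to 100 cGy over its mean change at 150 and 200 cGy, which a straight line would put at 0.412. The share had a median of 0.675 in the 44 risers, 0.939 in the 40 fallers, and 0.149 in the 894 genes rising over all doses. Of these 894, 234 had a share at or below 0, meaning no rise by the middle doses. For 738 of the 894 (82.6%), both mice at 150 and 200 cGy lay above all 8 mice below, against 13.2% of all genes tested. Among the 44, 38 had already separated at 75 cGy, with every mouse from 75 cGy up above every mouse below, against 1.47% of all genes. In the other direction, both top mice lay below the other 8 for 414 of the 614 falling genes (67.4%), against 9.25% of all genes, and 28 of the 40 had separated at 50 cGy, against 1.41%. The trend calls favour such genes, so nothing is read from these shares.

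**Figure D2:**
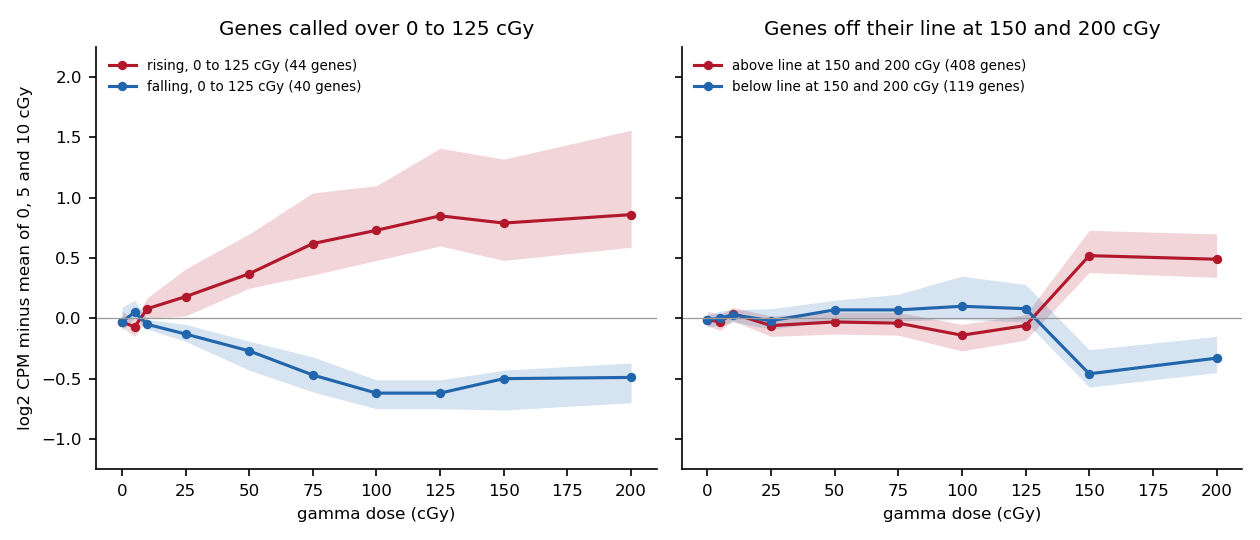
Median log2 CPM of each gene group minus its mean at 0, 5 and 10 cGy, against gamma dose in cGy, with bands from the lower to the upper quartile of the genes. Genes that rose or fell over 0 to 125 cGy move from 25 cGy on and level off. Genes above their line at 150 and 200 cGy have medians of -0.14 to 0.04 up to 125 cGy and then 0.52 and 0.49. Genes below it have medians of -0.02 to 0.10 and then -0.46 and -0.33. Over 0 to 125 cGy, 312 of the 408 genes above their line had a slope below 0, and 87 of the 119 below it had one above 0, so their lines tilt away from the offset.

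Genes of the p53 feedback circuit rose with dose. Of 14 listed members, all tested, 9 rose and 0 fell over all doses, beside 6.87% and 4.72% of all genes. Over 0 to 125 cGy 7 rose, beside 0.338%. The list had median slopes of 0.44 and 0.46, beside 0.00 and 0.01 for all genes. Ccng1, cyclin G1, which brings the phosphatase PP2A to Mdm2, was counted 727, 640, 789, 1025, 1147, 1284, 1595, 1572, 1818 and 2286 times from the lowest to the highest dose. Every mouse from 10 cGy up exceeded the 2 below, and the slope was 0.83 (SE 0.07, adjusted p = 5.1e-04), a fitted 3.16-fold increase at 200 cGy. Mdm2, the ubiquitin ligase that degrades p53, had 332, 332, 341, 393, 423, 481, 475, 504, 563 and 579 counts, a smaller slope of 0.41 (SE 0.05, adjusted p = 0.00273). Trp53inp1, a stress protein that promotes p53 phosphorylation, went from 439 counts at 0 cGy to 1198 at 75 cGy and 2175 at 200 cGy with a slope of 1.21 (SE 0.12, adjusted p = 9.2e-04). Aen, an exonuclease that p53 induces, had 160, 145, 166, 237, 282, 347, 420, 425, 424 and 634 counts, and its slope over 0 to 125 cGy was 1.24 (SE 0.12, adjusted p = 0.00611). Dcxr, a dicarbonyl reductase, was the 1 gene of all tested whose count increased at each step up to 125 cGy, from 66 to 213 counts, and it then read 204 and 226. Rps27l, a ribosomal protein paralog induced by p53 that may share reads with Rps27, stayed at 309 to 325 counts up to 25 cGy and reached 407, 518, 555 and 529 at 50 to 125 cGy (slope 0.72 over these doses, SE 0.10, adjusted p = 0.019). Zmat3, an RNA-binding zinc finger protein, had 191 to 233 counts up to 50 cGy, 273, 295 and 316 at 75 to 125 cGy, and 242 and 286 above (slope 0.44 over 0 to 125 cGy, SE 0.09, adjusted p = 0.0941). Trp53 itself was not called: it had 279 to 315 counts at 0 to 125 cGy and 226 and 250 at the highest doses (slope -0.16, SE 0.05, adjusted p = 0.106). Ppm1d, the phosphatase that switches the damage signal off, was not called either, with 94 to 152 counts in the 10 mice. Over all doses the calls of Ccng1, Mdm2, Trp53inp1 and Aen held with any 1 mouse left out, and so did those of Dcxr and Rps27l over 0 to 125 cGy, whereas Zmat3 was no longer called without any 1 of 7 of the 8 mice.

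Since these genes are textbook p53 targets, the genome around the 5′ ends of all tested genes was searched for the full p53 response element with no spacer, the C and G of both cores intact and at most 1 other mismatch, within 5000 bases on either side. The element is its own reverse complement, so both strands are covered, and no other motif was searched. It was found at 6 of the 44 genes rising over 0 to 125 cGy (13.6%), at 0 of the 40 falling genes, at 27 of the 894 (3.02%) and at 5 of the 614 (0.814%), beside 256 of all 13021 tested genes (1.97%). These counts describe letters, not binding. The mismatch was allowed after an exact search had found 30 genes. For Cdkn1a, Ccng1, Rps27l, Zmat3 and Ddit4 the element nearest to the gene start is printed as an example of the match, on the gene's strand with its 20 bases in capitals (mm9).
Cdkn1a, chr17:29227868-29227897, 41 bases before the gene start: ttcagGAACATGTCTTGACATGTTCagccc
Ccng1, chr11:40568959-40568988, 161 bases before the gene start: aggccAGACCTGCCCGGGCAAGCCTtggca
Rps27l, chr9:66794098-66794127, intron: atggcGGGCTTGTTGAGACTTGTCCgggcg
Zmat3, chr3:32263248-32263277, intron: gtgagAAACAAGCCCAGGCATGTCTtggga
Ddit4, chr10:59411245-59411274, outside the gene: actccAGACTTGCCTGGACTAGTCTagatg
The elements at Zmat3 and Ddit4 had 0 mismatches, and Ccng1, Ddit4 and Zmat3 each held a second element further off.

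Of 14 cell cycle arrest genes tested, 4 rose and 0 fell over all doses, beside 6.87% and 4.72% of all genes. Over 0 to 125 cGy 1 rose, beside 0.338%. The list as a whole did not shift much: 8 slopes were above 0 over all doses, and the medians were 0.01 and 0.16 in these ranges. Cdkn1a, the p21 inhibitor of cyclin-dependent kinases, had one of the steepest slopes and, of the 5 genes whose element is printed, carried it closest to its start. It was counted 366, 262, 517, 845, 1035, 1853, 2164, 2373, 2188 and 2937 times. Its slope was 2.34 over 0 to 125 cGy (SE 0.32, adjusted p = 0.0446) and 1.58 over all doses (SE 0.27, adjusted p = 0.0181), while neither curvature nor the offset at 150 and 200 cGy was called. Gtse1, a microtubule protein that restrains p53, was at 3, 1 and 7 counts at the 3 lowest doses and at 68 at 200 cGy (slope 1.67, SE 0.31, adjusted p = 0.0155). Btg2, an antiproliferative cofactor of mRNA deadenylation, had 352 to 407 counts up to 10 cGy and 528 to 772 above (slope 0.47, SE 0.08, adjusted p = 0.0118). The stress sensor Gadd45a had 16 to 47 counts with no order by dose (slope -0.37, SE 0.20, adjusted p = 0.336), and Ccnd1 had a slope of 0.01 (SE 0.22). The calls of Cdkn1a, Gtse1 and Btg2 over all doses held with any 1 mouse left out, but that of Cdkn1a over 0 to 125 cGy was lost without the mouse at 0, 10, 50 or 100 cGy, at slopes of 2.24 to 2.38 and adjusted p-values of 0.103 to 0.162. None of 23 proliferation genes was called in either direction (median slopes 0.02 and -0.04).

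Some apoptosis genes rose. Of 17 tested, 6 rose and 0 fell over all doses, beside 6.87% and 4.72% of all genes. Over 0 to 125 cGy 4 rose, beside 0.338%. Bax, which permeabilizes the mitochondrial membrane, had 191, 182, 212, 267, 281, 336, 384, 379, 388 and 424 counts and a slope of 0.83 over 0 to 125 cGy (SE 0.10, adjusted p = 0.0127). The antiapoptotic Bcl2l1, which encodes Bcl-xL, rose beside it from 350 to 376 counts at 0 to 10 cGy to 564 at 100 cGy and 612 at 125 cGy, with 523 and 561 at the top doses (slope 0.57 over 0 to 125 cGy, SE 0.06, adjusted p = 0.0101). Ei24, an endoplasmic reticulum protein first found as a p53-induced gene, had 486, 485, 507, 538, 630, 689, 845, 834, 707 and 840 counts, and like Bcl2l1 it lay below its own line at 150 and 200 cGy (offset -0.51, adjusted p = 0.0335). Eda2r, the TNF-family receptor for ectodysplasin A2, had 5 to 20 counts up to 10 cGy and 116 and 186 at 150 and 200 cGy (slope 1.69, SE 0.26, adjusted p = 0.0118). Apaf1, the scaffold of the apoptosome, rose over all doses from 87 counts at 0 cGy to 206 at 200 cGy (slope 0.51, SE 0.08, adjusted p = 0.011). The classic death genes Fas and Bbc3 (Puma) were not called, with slopes of 0.01 (SE 0.07) and 0.17 (SE 0.16). Over all doses the slopes of Bax, Bcl2l1, Ei24 and Eda2r were called with any 1 mouse left out, and that of Apaf1 was not called without the mouse at 200 cGy (0.40, adjusted p = 0.12). With GC content and length corrected, the offsets of Ei24 (-0.46, adjusted p = 0.176) and Bcl2l1 (-0.25, adjusted p = 0.524) were not called.

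The p53 metabolism and stress list had 11 risers and 0 fallers among 27 tested genes, beside 6.87% and 4.72% of all genes. Over 0 to 125 cGy 4 of the list rose, beside 0.338%. Ephx1, microsomal epoxide hydrolase, was its most abundant riser, with 762 to 1153 counts at 0 to 10 cGy, 1446 at 25 cGy and 2408 at 200 cGy (slope 0.70, SE 0.13, adjusted p = 0.0186). Slc19a2, a thiamine transporter, had 44 to 66 counts at 0 to 10 cGy and 103 to 129 from 75 cGy up (slope 0.97 over 0 to 125 cGy, SE 0.16, adjusted p = 0.0446). Sesn2, a leucine sensor that restrains mTORC1, rose from 29 to 49 counts at the 3 lowest doses to 125 at 100 cGy (slope 1.37 over 0 to 125 cGy, SE 0.25, adjusted p = 0.0596). Ddit4, another brake on mTORC1, climbed to 190 counts at 125 cGy and was at 112 and 133 at 150 and 200 cGy. Its slope was 1.20 over 0 to 125 cGy (SE 0.20, adjusted p = 0.0391) and it lay 1.09 log2 units below that line at the top doses (adjusted p = 0.0908). The nucleotide excision and translesion genes Ercc5 and Polk rose by smaller slopes of 0.29 and 0.36 over all doses (SE 0.05 and 0.06, adjusted p = 0.0118 for each). Of 37 genes for damage sensing and repair, 4 rose and 1 fell over all doses (median slope 0.09), near the 6.87% and 4.72% of all genes, and 0 were called over 0 to 125 cGy. Over 0 to 125 cGy, Slc19a2 lost its call without the mouse at 0, 5, 75 or 100 cGy (adjusted p = 0.105 to 0.118), Sesn2 without any 1 of 7 of the 8 mice, and Ddit4 without that at 10 cGy (slope 1.18, adjusted p = 0.101) or 125 cGy (slope 1.10, adjusted p = 0.227), while over all doses Slc19a2 and Sesn2 held without any 1 mouse. The offset of Ddit4 was -0.94 (adjusted p = 0.333) with GC content and length corrected, and Polk was not called without the mouse at 200 cGy (slope 0.33, adjusted p = 0.103).

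**Figure D3:**
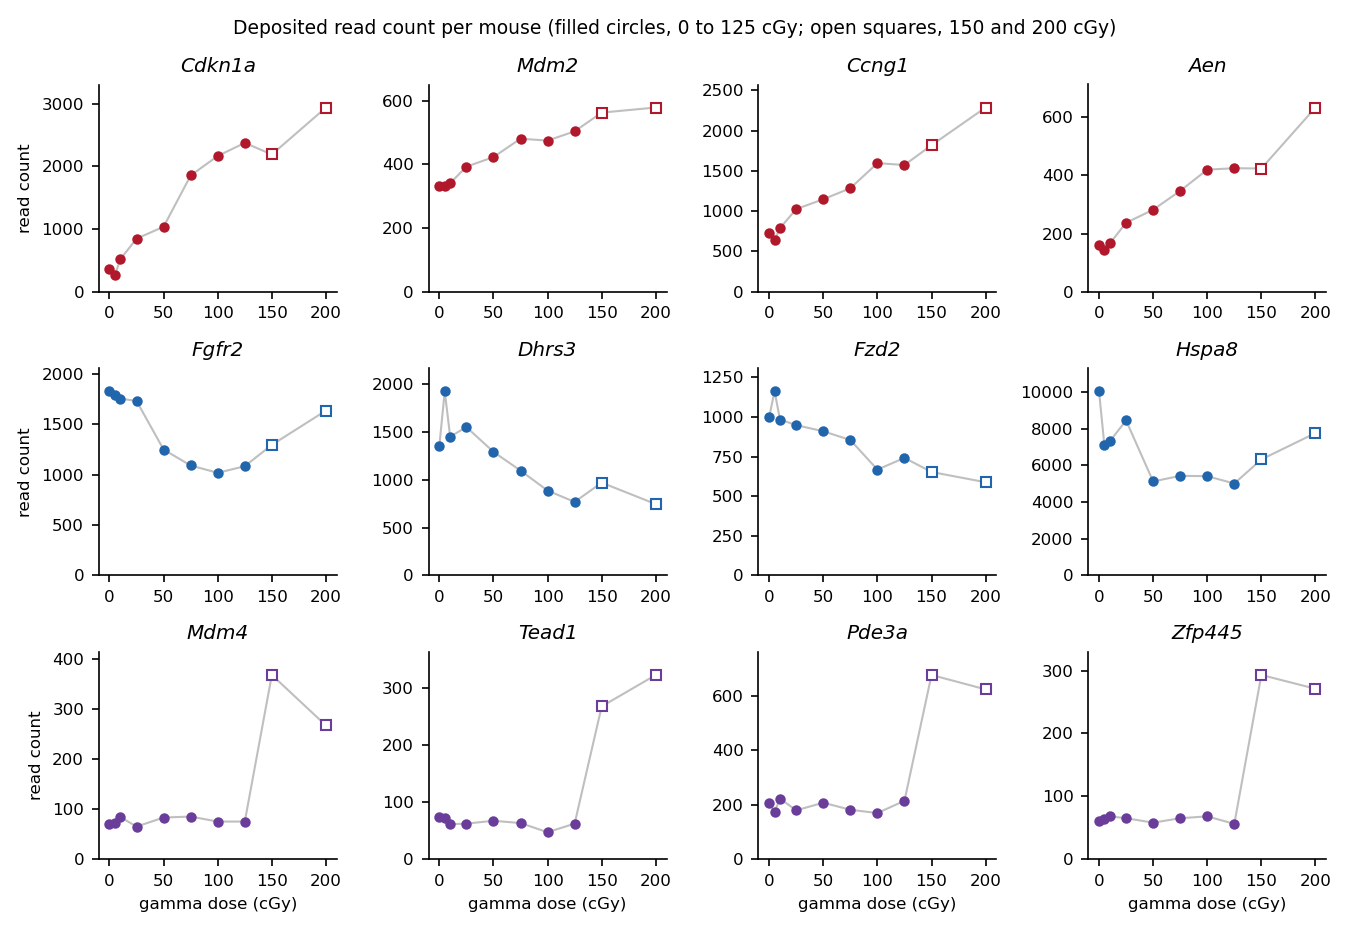
Deposited read counts per mouse against gamma dose in cGy, with filled circles for 0 to 125 cGy and open squares for 150 and 200 cGy, 1 mouse per point. The top row shows p53 targets that rose over both dose ranges (Cdkn1a, Mdm2, Ccng1, Aen), the middle row falling genes, of which Fgfr2 and Hspa8 come back at the top doses, and the bottom row genes that are flat up to 125 cGy and then high (Mdm4, Tead1, Pde3a, Zfp445).

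Genes known as glucocorticoid targets had medians of 0.50 over all doses and 0.60 over 0 to 125 cGy. Of the 20 genes in this list, 11 rose and 0 fell over all doses, beside 6.87% and 4.72% of all genes. Over 0 to 125 cGy 4 rose (Cdkn1a, Ddit4, Zbtb16 and Nfkbia) and 0 fell, beside 0.338% and 0.307%. However, Cdkn1a, Gadd45g and Ddit4 also stand in the p53 lists. Zbtb16, a zinc finger repressor, had 165, 126, 164, 182, 243, 325, 336, 814, 746 and 642 counts, with its largest step between 100 and 125 cGy (slope 1.36, SE 0.18, adjusted p = 0.00835). Sgk1, a kinase that controls sodium channels, had 240 to 319 counts up to 50 cGy and 376, 393, 450, 505 and 628 above (slope 0.57, SE 0.07, adjusted p = 0.00365). Klf9, a Krueppel-like repressor, ranged from 534 to 764 counts up to 100 cGy and from 927 to 1034 above (slope 0.41, SE 0.07, adjusted p = 0.0118). Nfkbia, the inhibitor of NF-kappaB, rose over 0 to 125 cGy (slope 0.63, SE 0.12, adjusted p = 0.0725). Other classic members did not pass: Fkbp5 had 323 counts at 125 cGy but 74 to 184 in the other 9 mice (slope 0.68, SE 0.23, adjusted p = 0.112), Tsc22d3 had a slope of 0.45 (SE 0.21) and the metallothionein Mt1 one of 0.25 (SE 0.19). Zbtb16, Sgk1 and Klf9 were called over all doses with any 1 mouse left out, and so was Nfkbia, which over 0 to 125 cGy lost its call without any 1 of 7 of the 8 mice.

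Several risers belonged to none of these lists. Igf2r, the receptor that carries lysosomal enzymes and clears insulin-like growth factor 2, came second to Ccng1 by p over all doses, with 507 to 600 counts at 0 to 25 cGy, 685 to 827 at 50 to 125 cGy and 945 and 1268 above (slope 0.55, SE 0.05, adjusted p = 5.8e-04). Htr1b, a serotonin receptor that contracts arteries, had 55 to 80 counts up to 50 cGy and 107, 104, 144, 188 and 209 above (slope 0.94, SE 0.09, adjusted p = 6.6e-04). Has3, a hyaluronan synthase, rose from 12 counts to 91 (slope 1.32, SE 0.17, adjusted p = 0.00365). Rfx7, a winged-helix transcription factor, was counted 122, 121, 131, 141, 154, 165, 186, 199, 200 and 231 times (slope 0.45, SE 0.05, adjusted p = 0.00207), although over all doses a GC content and length offset ended that call (slope 0.23, adjusted p = 0.146). Polr2a, the largest subunit of RNA polymerase II, rose from 522 to 570 counts at 0 to 10 cGy to 893 at 125 cGy (slope 0.51 over 0 to 125 cGy, SE 0.07, adjusted p = 0.023). Rnf169, a ubiquitin reader at DNA breaks, rose from 112 counts to 337 over all doses (slope 0.62, SE 0.07, adjusted p = 0.00293). Left out 1 at a time, no mouse ended the calls of these 6 genes over all doses, but Polr2a over 0 to 125 cGy was not called without the mouse at 125 cGy (slope 0.47, adjusted p = 0.162).

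Falling genes had shallower slopes. Fgfr2, a fibroblast growth factor receptor, was the 1 gene (0.00768% of those tested) called for curvature: it had 1830, 1789, 1757, 1733, 1250, 1092, 1019, 1085, 1297 and 1638 counts, a fall of 0.77 per 100 cGy up to 125 cGy (SE 0.10, adjusted p = 0.0174) with a return at the top doses, so that its slope over all doses was -0.22 (SE 0.13, adjusted p = 0.384). The 4 mice from 50 to 125 cGy lay below all the other 6. Curvature called 0 genes downward, and 648 upward and 631 downward genes had an unadjusted p under 0.05, while DESeq2 called 64 and 35. Hspa8, the constitutive Hsc70 chaperone, whose many processed pseudogenes may share its reads, had the same kind of course, with 10033, 7080, 7303, 8445, 5116, 5423, 5405, 5005, 6317 and 7754 counts (slope -0.69 over 0 to 125 cGy, SE 0.14, adjusted p = 0.0928, and -0.18 over all doses, SE 0.13). Its partner Stip1, which links Hsp70 to Hsp90, fell alongside from 1360 counts at 0 cGy to 686 at 100 cGy and read 791 and 871 at the top doses (slope -0.69 over 0 to 125 cGy, SE 0.11, adjusted p = 0.0395). Of 20 heat shock chaperones, 3 had a slope above 0 over 0 to 125 cGy and the median was -0.22. In that range 1 was called as falling, beside 0.307% of all genes. Over all doses 3 were called as falling (Bag3, Hsp90ab1 and Hspb1, slopes -0.24 to -0.27), beside 4.72%. None of these 3 was called without the mouse at 150 cGy (adjusted p = 0.133 to 0.251) or with GC content and length corrected (adjusted p = 0.11 to 0.334). Over 0 to 125 cGy, Fgfr2 was called with any 1 mouse left out, Stip1 was not called without the mouse at 5 cGy (slope -0.71, adjusted p = 0.112), and Hspa8 lost its call without any 1 of 7 of the 8 mice. The return of Fgfr2 and Hspa8 rests on the libraries at 150 and 200 cGy, which differed in composition. Their offsets there were not called (Fgfr2 0.91, adjusted p = 0.107, and Hspa8 0.86, adjusted p = 0.161).

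Wnt genes fell in part. Fzd2, a Wnt receptor, had the smallest p of all falling genes, with 949 to 1163 counts at 0 to 25 cGy, 668 to 910 at 50 to 125 cGy and 653 and 588 above (slope -0.46, SE 0.06, adjusted p = 0.00396). Of 37 Wnt pathway genes, 9 fell and 1 rose over all doses, beside 4.72% and 6.87% of all genes (medians -0.10, and -0.06 over 0 to 125 cGy), among them the receptors Fzd1 (slope -0.33, SE 0.07) and Fzd7 (slope -0.27, SE 0.07). Apc, the scaffold that degrades beta-catenin, was the riser (slope 0.28, SE 0.06, adjusted p = 0.0277), and its slope was 0.01 with GC content and length corrected. In the fit over 0 to 125 cGy, 1 gene of this Wnt list fell and 0 rose, beside 0.307% and 0.338% of all genes. The faller was Fzd2 (slope -0.52, SE 0.10, adjusted p = 0.0725). The other calls in this Wnt list came only with the mice at 150 and 200 cGy, whose libraries differed in composition. Tle3, a Groucho corepressor in that pathway, was not in this list, nor was Sost, which is given below, so the list counts leave both out. Tle3 fell in both ranges, from 489 to 627 counts at 0 to 10 cGy to 341 and 361 at the top doses (slope -0.45, SE 0.06, adjusted p = 0.00616). Jup, or plakoglobin, a junctional relative of beta-catenin, went from 689 to 831 counts at the 3 lowest doses to 429 and 415 (slope -0.48, SE 0.07, adjusted p = 0.00595). Over all doses Fzd1, Fzd2, Tle3 and Jup were called with any 1 mouse left out, Fzd7 was not called without the mouse at 5 cGy (slope -0.23, adjusted p = 0.103) or 150 cGy (slope -0.24, adjusted p = 0.122), and Apc was not called without that at 200 cGy (slope 0.24, adjusted p = 0.214). Over 0 to 125 cGy, Tle3 lost its call without the mouse at 0, 5, 75 or 125 cGy.

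Retinoid genes had 5 fallers and 0 risers among 20 tested over all doses, beside 4.72% and 6.87% of all genes. In the fit over 0 to 125 cGy, 1 fell (Dhrs3) and 0 rose, beside 0.307% and 0.338%. The medians in these ranges were -0.10 and -0.12, beside 0.00 and 0.01. The other retinoid calls came only with the mice at 150 and 200 cGy, whose libraries differed in composition. Dhrs3, which turns retinal back to retinol, had 1352, 1926, 1451, 1551, 1292, 1096, 887, 768, 970 and 745 counts, and every mouse from 50 cGy up lay below every mouse at lower dose (slope -0.90 over 0 to 125 cGy, SE 0.13, adjusted p = 0.0244). Cyp26b1, which degrades retinoic acid, fell over all doses from 171 to 225 counts at 0 to 25 cGy to 100 at 200 cGy (slope -0.55, SE 0.08, adjusted p = 0.00835). The receptors Rxra (slope -0.32, SE 0.06, adjusted p = 0.0124) and Rarg (slope -0.33, SE 0.08, adjusted p = 0.0316) fell as well, while the synthesis gene Aldh1a2 was at 0 to 25 counts and showed no order by dose. Without the mouse at 125 cGy Dhrs3 was not called over the lower doses (slope -0.88, adjusted p = 0.162), and without that at 200 cGy Rarg was not called (slope -0.31, adjusted p = 0.202).

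Of the other falling genes given here, Pdgfrb, Sost and Smad3 were chosen after their values were seen. Heyl, a Notch effector of arterial smooth muscle, had 2052 to 3074 counts up to 50 cGy and 1115 to 1691 from 75 cGy (slope -0.64, SE 0.09, adjusted p = 0.00835). Pdgfrb, the platelet-derived growth factor receptor of mural cells, had 2747 to 3411 counts up to 50 cGy and 2060 to 2273 above, with no overlap (slope -0.49 over 0 to 125 cGy, SE 0.09, adjusted p = 0.0735). Sost, the secreted Wnt and BMP antagonist sclerostin, was among the most abundant called genes, with 12441, 15219, 13937, 12932, 9104, 8716, 7589, 9202, 9362 and 9301 counts (slope -0.69 over 0 to 125 cGy, SE 0.15, adjusted p = 0.0988). Smad3, a transducer of TGF-beta, had 288 to 324 counts up to 25 cGy and 202 to 255 above (slope -0.53 over 0 to 125 cGy, SE 0.11, adjusted p = 0.0875). Wscd2, a sulfotransferase-like membrane protein, fell in both ranges with 890 to 1064 counts at 0 to 25 cGy and 493 to 803 above (slope -0.77 over 0 to 125 cGy, SE 0.09, adjusted p = 0.0127). Pcyox1l, a prenylcysteine oxidase-like gene, was among 3 genes of all tested whose counts fell at each step from 0 to 125 cGy, from 339 counts to 190. Over 0 to 125 cGy Wscd2 was called with any 1 mouse left out, Pcyox1l was not called without the mouse at 125 cGy (slope -0.62, adjusted p = 0.102), and Pdgfrb, Sost and Smad3 each lost their call without any 1 of 7 of the 8 mice.

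No contractile or elastic fibre gene was called over 0 to 125 cGy. Of 24 smooth muscle genes, 4 fell and 1 rose over all doses (medians -0.06 and -0.09), beside 4.72% and 6.87% of all genes. Smtn, smoothelin, had 12114 to 17304 counts up to 125 cGy and 10881 and 9742 above (slope -0.35, SE 0.08, adjusted p = 0.0341), and Myocd, the coactivator of contractile genes, went the other way with 144 to 361 counts up to 125 cGy and 903 and 734 above (slope 1.05, SE 0.19, adjusted p = 0.0185). Elastic fibre genes had 5 fallers and 1 riser among 21 (medians -0.12 and -0.07), beside the same 4.72% and 6.87%. Emilin1 fell (slope -0.40, SE 0.07, adjusted p = 0.0142) and Loxl1, an elastin crosslinker, fell (slope -0.41, SE 0.08, adjusted p = 0.0186), while Fbn1, the microfibril protein fibrillin-1, rose (slope 0.30, SE 0.07, adjusted p = 0.0318). With GC content and length corrected, Emilin1 and Loxl1 were still called (adjusted p = 0.0814 and 0.0709) and Fbn1 was not (adjusted p = 0.388). Without the mouse at 200 cGy, Smtn (adjusted p = 0.23), Emilin1 (adjusted p = 0.123), Loxl1 (adjusted p = 0.135) and Fbn1 (adjusted p = 0.178) were not called, and Smtn (adjusted p = 0.113) and Fbn1 (adjusted p = 0.107) were not called without that at 150 cGy either. TGF-beta and BMP genes had 5 fallers and 2 risers among 38 over all doses, beside 4.72% and 6.87% of all genes. Over 0 to 125 cGy this list had 1 faller and 0 risers, beside 0.307% and 0.338%. None of 24 endothelial genes was called, and their summed level was highest in the mice at 0, 25, 100 and 200 cGy. Brown and white fat genes had high medians over 0 to 125 cGy, 1.10 and 0.88, with 0 of 18 and 0 of 24 called, and the 89 oxidative phosphorylation genes had a median of 0.23 with 0 called. The mouse at 100 cGy had the most fat marker RNA, and without it the fat medians were 0.08 and 0.15.

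**Figure D4:**
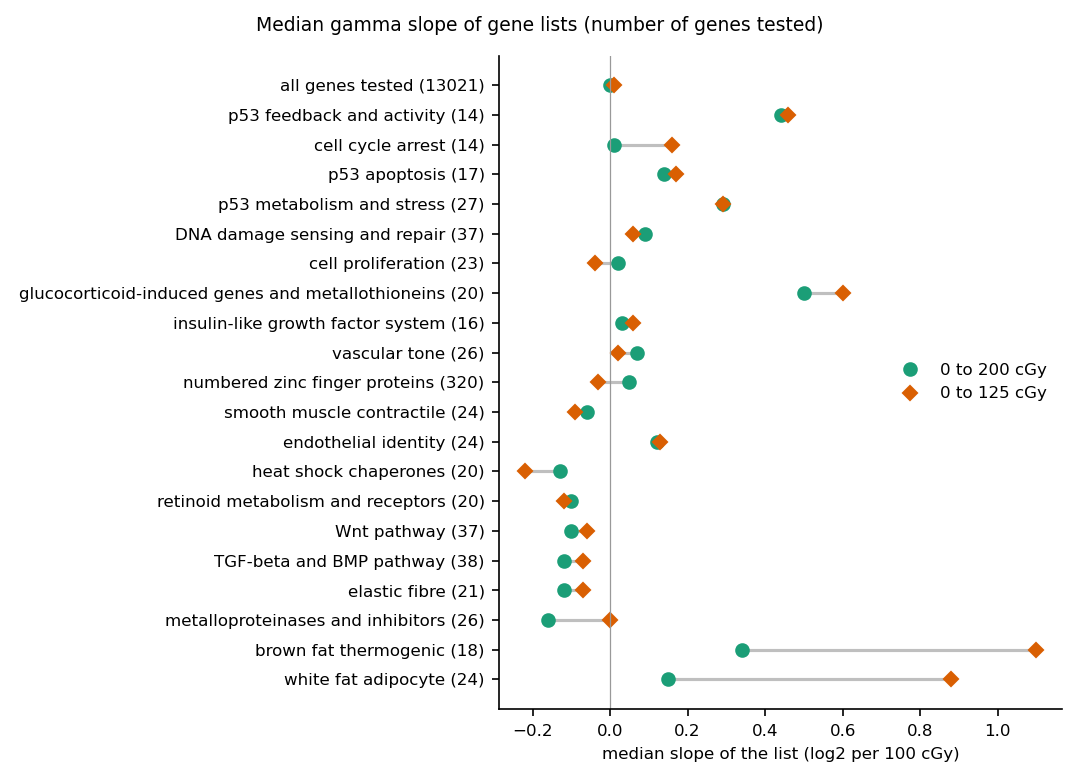
Median slope (log2 change per 100 cGy) of each gene list over 0 to 200 cGy (circles) and 0 to 125 cGy (diamonds), with the number of genes tested. The p53 feedback and the glucocorticoid list lie at 0.44 or more in both ranges. The smooth muscle, heat shock, retinoid, Wnt, TGF-beta and elastic fibre lists lie at or below -0.06, and the fat lists at 0.88 and 1.10 over 0 to 125 cGy.

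A further 408 genes (3.13%) lay above the line through 0 to 125 cGy at the 2 highest doses and 119 (0.914%) below it. In a fit on the same mice, 197 of the 408 also rose and 29 of the 119 also fell over all doses. Zfp445, a KRAB zinc finger protein of imprinting control, had 56 to 68 counts in all 8 mice up to 125 cGy and 293 and 271 above (offset 2.27 log2 units, SE 0.17, adjusted p = 2.3e-04). Tead1, the DNA-binding partner of YAP, had 47 to 74 counts and then 267 and 322 (offset 2.45, SE 0.24, adjusted p = 0.00207). Pde3a, which breaks down cyclic AMP in vascular smooth muscle, had 169 to 222 counts and then 676 and 623 (offset 1.81, SE 0.18, adjusted p = 0.00207).

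Mdm4, the partner of Mdm2 in restraining p53, belonged to this set and not to the graded risers. It was counted 70, 72, 84, 65, 83, 85, 75 and 75 times up to 125 cGy and then 368 and 267 times (offset 2.12, SE 0.23, adjusted p = 0.00273), with a slope of 0.03 over 0 to 125 cGy (SE 0.15), whereas Mdm2 had no offset (-0.09, adjusted p = 0.784). Foxn3, a checkpoint-linked forkhead repressor, had 15 to 29 counts and then 161 and 150 (offset 2.97, SE 0.39, adjusted p = 0.00755). Eif2c2, or Argonaute 2, had 50 to 90 counts and then 260 and 348 (offset 2.22, SE 0.29, adjusted p = 0.00755). Igf1r, the insulin-like growth factor 1 receptor, had 58 to 77 counts and then 164 and 223 (offset 1.46, SE 0.23, adjusted p = 0.0141). Prkg1, the cyclic GMP kinase that relaxes smooth muscle, had 11 to 29 counts and then 91 and 89 (offset 2.51, SE 0.48, adjusted p = 0.0297). Fewer genes went down, and by less: Mkl1, a cofactor of serum response factor, had 183 to 272 counts and then 160 and 159 (offset -0.88, SE 0.16, adjusted p = 0.024), and Chst12, a chondroitin sulfotransferase, had 515 to 611 counts and then 318 and 326 (offset -0.68, SE 0.12, adjusted p = 0.0253). In no case named here did the 2 top mice overlap the other 8.

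These genes differed in composition from those called over 0 to 125 cGy. The 408 had a median transcript length of 6438 bases and GC content of 46.2%, against 3064 bases and 50.4% for all genes tested, 3542 bases and 49.1% for the 44 early risers, and 3345 bases and 56.5% for the 119. The 894 genes rising over all doses were similar to the 408, at 5710 bases and 46% GC, and the 614 falling genes to the 119 in GC content, at 56.8%. With GC content and length corrected, 57 genes lay above and 6 below their line. Zfp445, Tead1, Pde3a, Mdm4, Foxn3, Eif2c2, Igf1r and Prkg1 were still called (Mdm4 offset 2.02, SE 0.23, adjusted p = 0.00414), and Mkl1 and Chst12 were not (adjusted p = 0.193 and 0.19). Numbered zinc finger genes had 15 of 320 above the line and 1 below, spliceosome genes 5 of 64 and DEAD or DEAH box helicases 5 of 51 above, beside 3.13% of all genes. Among genes rising over all doses the ubiquitin ligase list had 19 of 128 and the zinc finger list 27 of 320, beside 6.87% of all genes.

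**Figure D5:**
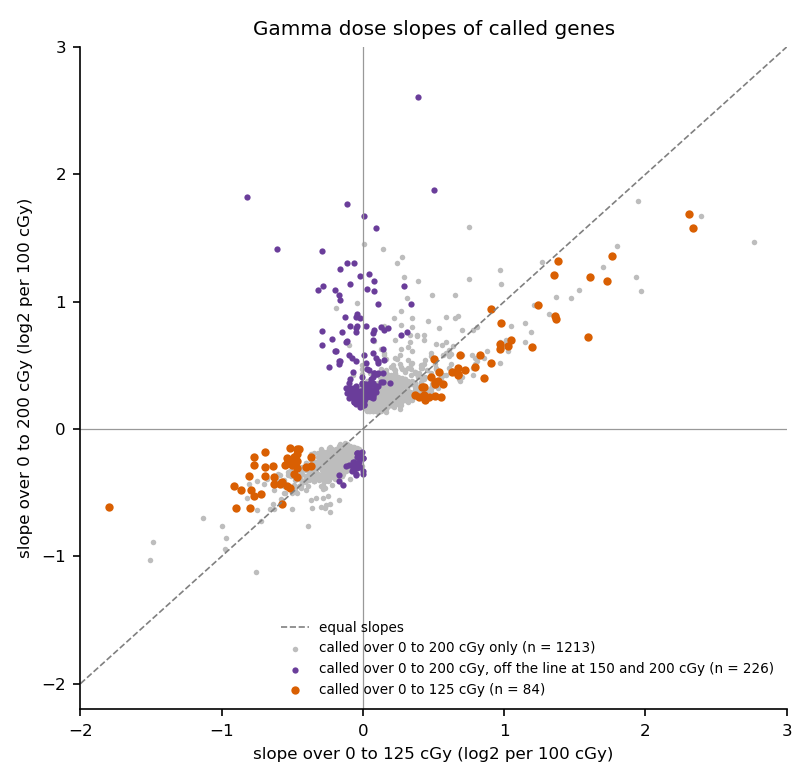
Slope over 0 to 200 cGy against slope over 0 to 125 cGy (both log2 change per 100 cGy) for each called gene. Of the 84 genes called over 0 to 125 cGy, 81 had the smaller slope in size over 0 to 200 cGy, while the 197 risers among the 226 genes off their line at 150 and 200 cGy had a median slope of 0.00 over 0 to 125 cGy, from -0.82 to 0.50. The calls were made on these same mice and favour such slopes, so nothing is read from these values.

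The proton mice were not used to call these genes. At 0, 5, 10 and 25 cGy the correlations between deviation and GC content were 0.0288, 0.406, 0.212 and 0.122 in gamma libraries. In proton libraries they were 0.0603, 0.311, 0.173 and 0.109. At 50, 75, 100 and 125 cGy they were 0.204, 0.193, 0.131 and 0.051 for gamma rays and -0.0155, 0.0293, 0.264 and 0.217 for protons. Whether library effects shared by dose add to the agreement below was not tested. Of the 44 genes rising over 0 to 125 cGy of gamma rays, 41 had a slope above 0 over the same doses of protons, with a median of 0.43, against 55.9% and 0.02 for all genes, and 3 were called there, as many as were called in all (0.023%). Of the 40 falling genes, 38 had a proton slope below 0, with a median of -0.31, against 5743 of all 13021 genes. In the proton mice 0 of the 40 were called as falling, as were 0 of all genes. Without the proton mouse at 75 cGy the counts were 39 and 38. The exceptions among the risers included Has3 (proton slope -0.50) and Plcg1 (-0.02). Cdkn1a had a proton slope of 1.60 (SE 0.26, adjusted p = 0.35) and Ccng1 one of 0.97 (SE 0.22, adjusted p = 0.986). Aen had one of 1.04 (SE 0.15, adjusted p = 0.221) and Bax one of 0.84 (SE 0.15, adjusted p = 0.427). None of these genes was called over 0 to 125 cGy of protons. Over 0 to 200 cGy of protons, Cdkn1a (slope 1.39, adjusted p = 0.0124) and Ccng1 (slope 0.94, adjusted p = 0.0124) were called as rising. So were Aen (slope 0.98, adjusted p = 0.00126) and Bax (slope 0.62, adjusted p = 0.0445), in a fit that takes in the libraries at 150 and 200 cGy.

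The offset at 150 and 200 cGy was also seen in the proton mice: 406 of the 408 genes above the gamma line lay above the proton line, with a median offset of 0.61, against 43% and -0.07 for all genes, and 94 of them were called, out of 122 called in all (0.937%). Below the line it was 112 of 119, against 7421 of all 13021, with 5 called of 27 in all (0.207%). The proton libraries at 150 and 200 cGy had the same composition, with correlations between deviation and GC content of -0.484 and -0.427 against -0.0155 to 0.311 at lower doses, so dose and library composition cannot be told apart in either series. A test of the difference between the gamma and proton slopes called 0 genes over 0 to 200 cGy (smallest adjusted p = 0.149, 254 genes at an unadjusted p under 0.05, 0 by DESeq2 in either direction) and 0 over 0 to 125 cGy (smallest adjusted p = 1, 303 genes at an unadjusted p under 0.05, 1 by DESeq2), which does not show that the responses were alike. With the gamma and proton mouse of each dose as a block it called 0 genes in both ranges (smallest adjusted p = 1, with 344 and 232 genes at an unadjusted p under 0.05).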

How the data were processed

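Stranded, polyA-selected libraries had been aligned by the authors with STAR 2.5.2a to mm9 (CASAVA 1.8.1 for base calls) and resampled with PORT, and sense-strand read counts for each gene were deposited. No further scaling was found. Counts of the 10 gamma libraries were fitted in edgeR 4.0.16 (TMM, robust quasi-likelihood) with dose as a line, an added offset for 150 and 200 cGy, or a squared term. P-values were adjusted by Benjamini-Hochberg over all 13021 genes, with a threshold of 0.1. DESeq2 1.42.0, an exact rank test and an offset for GC content and length (12474 genes) were alternatives. Each dose was 1 library, and the depth near 6055666 counts limits genes of few counts. The scripts were tested on simulated data. Coordinates and p53 elements were read from NCBIM37 (GENCODE M1).

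The genes and lists were chosen with earlier results of these data known. Named genes are the 12 rising and 12 falling with the smallest p over 0 to 200 cGy, 6 and 6 over 0 to 125 cGy, 5 and 5 for the offset and curvature, up to 4 per list and the 5 steepest in each direction, passing over unnamed gene models. Named after their values were seen were Aldh1a2, Bbc3, Ccnd1, Ddit4, Ephx1, Fas, Fkbp5, Gadd45a, Hspa8, Kcnma1, Mt1, Pdgfrb, Plcg1, Polr2a, Ppm1d, Rps27, Smad3, Sost, Stip1, Trp53, Tsc22d3 and Zmat3. Some results that touch withheld items are not reported here.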

Additional observations from a re-analysis of the deposited data

Results flagged for a closer look

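The summed brown fat markers of the mouse at 100 cGy lay far above those of the other 9 gamma mice, with a gap to the next highest that was 0.864 of the whole range, and the summed white fat markers of the same mouse did so with a gap of 0.745. Fkbp5 was highest in the mouse at 125 cGy by a gap of 0.558 of its range, and Apaf1 was highest in the mouse at 200 cGy by a gap of 0.556. Of 108 sets of 10 values examined (the counts of the genes named and the summed marker lists), these 4 passed Dixon's limit for 10 values, and chance marks about 1 in 20.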

How the results depend on the processing

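Values are counts of rising and then falling genes unless stated. Over 0 to 200 cGy the main 894 and 614 became 239 and 293 with the GC content and length correction, 46 and 21 on log2(dose + 1), 485 and 284 at an adjusted p of 0.05, and 44 and 40 without 150 and 200 cGy, and leaving out 1 mouse gave 128 (without 200 cGy) to 1195 (without 100 cGy) and 145 to 802. Over 0 to 125 cGy the 44 and 40 became 96 and 120 in DESeq2, 8 and 8 on log2(dose + 1), 25 and 15 at 0.05, and 18 to 30 and 8 to 28 with 1 mouse left out. Of the 408 genes above and 119 below their line, 57 above and 6 below were left with the correction and 178 and 22 at 0.05, and the count below was 181 in DESeq2, 69 for genes with 1 count or more and 200 at a mean count of 50. Curvature called 64 up and 35 down in DESeq2 and 2 up at 1 count or more, and DESeq2 called 1 gene with a lower gamma than proton slope over 0 to 125 cGy. The rank test's 253 and 54 became 39 and 103 with the correction, 116 and 144 on TMM values, 122 and 22 at 1 count or more, 85 and 15 at 0.05, and 33 (without 150 cGy) to 300 (without 0 cGy) and 4 to 100 with 1 mouse left out, and over 0 to 125 cGy it called 3 falling genes at a mean count of 50. Restricted to 0 to 125 cGy, the slopes of Eif2c2 (-0.20), Igf1r (-0.05), Pde3a (-0.05), Prkg1 (-0.11), Tead1 (-0.28) and Zfp445 (-0.09) changed sign, those genes being high at the 2 top doses that this fit leaves out. The cause was not tested for the other changes. Of 2982 alternative values for the named genes, 2598 kept direction and side of the threshold, 335 lost a call, 43 gained one and 6 were those just named. Of 1260 list medians, 1146 moved by less than 0.1. The proton counts of 41 and 38 were 39 and 38 without the proton mouse at 75 cGy. That fit, the dose block, the proton fits and the allowed element mismatch were chosen after the data were seen. Within the gamma series each dose was 1 mouse, so nothing could be paired there. With the gamma and proton mouse of each dose as a block, the slope difference called 0 genes in either range, as without it. Depth limits genes with few counts.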

Other observations

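Some genes in lists not described above were also called over all doses, beside 6.87% rising and 4.72% falling of all genes. Of 7 nuclear factor I and ZHX genes, 3 fell and 1 rose: Nfix, a transcription factor of muscle and brain, had 1601 to 2081 counts up to 125 cGy and 1153 and 1217 above (slope -0.45, SE 0.06, adjusted p = 0.00621), Nfic (slope -0.38, SE 0.08) and Zhx2 (slope -0.32, SE 0.06) fell as well, and the repressor Zhx3 rose in both ranges, with 328 to 380 counts up to 25 cGy and 407 to 531 above (slope 0.51 over 0 to 125 cGy, SE 0.09, adjusted p = 0.0536), although with GC content and length corrected its slope over all doses was 0.16 (adjusted p = 0.418). Among 18 circadian clock genes 3 rose and 2 fell over all doses. The nuclear receptor Rora (slope 0.28, SE 0.05) and the activator Clock (slope 0.26, SE 0.06) rose, but neither was called after the correction for GC content and length (adjusted p = 0.937 and 0.946), while the repressor Bhlhe41 fell before it (slope -0.34, SE 0.07) and after it (slope -0.48, adjusted p = 0.00882).

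Of 26 metalloproteinases and inhibitors, 5 fell and 1 rose. Adamts8 fell (slope -0.63, SE 0.12, adjusted p = 0.0175), with 410 to 587 counts at 0 to 75 cGy and 234 to 339 above, and the versican-cleaving Adamts1 rose, from 684 counts at 0 cGy to 1929 and 1709 at the top doses (slope 0.58, SE 0.12, adjusted p = 0.0259). In the vascular tone list, 4 of 26 rose and 2 fell, among them the phosphodiesterase Pde5a (slope 0.32, SE 0.08) and the thromboxane receptor Tbxa2r (slope -0.32, SE 0.09), and Kcnma1, the large-conductance calcium-activated potassium channel, had 91 to 133 counts up to 125 cGy and 247 and 221 above (offset 1.17, adjusted p = 0.0224). Interferon-stimulated genes had 2 risers among 24, near the share of all genes, Eif2ak2 (slope 0.47, SE 0.09) and Parp14 (slope 0.25, SE 0.08). Of 77 cytosolic ribosomal protein genes 1 rose, Rps27l, and of 36 proteasome genes 0 were called. Without the mouse at 200 cGy, Nfic, Rora, Clock, Bhlhe41, Eif2ak2, Parp14, Pde5a and Tbxa2r were not called (adjusted p = 0.105 to 0.312), Clock, Parp14, Pde5a and Tbxa2r were not called without that at 150 cGy either (adjusted p = 0.121 to 0.2), and Zhx3 over 0 to 125 cGy lost its call without any 1 of 5 of the 8 mice.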
